A study of Homo sapiens with 14 samples.

Results

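The 6 genes described here encode the core of Polycomb repressive complex 2 (PRC2): EZH2 and EZH1, SUZ12, EED, RBBP4 and RBBP7. They were chosen by symbol as the subunits shared by PRC2 complexes, and each had a row in all 3 deposited tables, making 6 of the 13720 genes present in every table. RNA was sequenced from 14 libraries of 2 established human acute myeloid leukaemia lines, MV4;11, which carries a KMT2A rearrangement, and EOL-1. The 7 groups held 2 libraries each. In MV4;11, the hairpin group shEZH2 was set against the empty-vector group EV, and 2 groups with sgRNAs against cMyc (sgRNA 1 and sgRNA 5) shared a control group, sgEV. In EOL-1, sgEZH2 was set against its own sgEV. All groups, controls included, received doxycycline at 1 µg/ml for 4 days. EZH2 was targeted with 1 hairpin in one line and with 1 guide in the other, so line and depletion method cannot be told apart. The labels state neither clone nor pool, and they do not say that replicate libraries are independent cultures. The p-values therefore weigh differences against a spread that may be only technical.

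PRC2 methylates lysine 27 of histone H3, a mark of gene silencing. EZH2 and EZH1 are alternative catalytic subunits, of which EZH2 is typical of dividing cells and EZH1 of resting ones. SUZ12 is the scaffold, EED reads the methylated histone tail and stimulates the enzyme, and RBBP4 and RBBP7 are closely related histone-binding proteins that also sit in other chromatin complexes, among them NuRD, SIN3 and, for RBBP4, the nucleosome assembly factor CAF-1. In acute myeloid leukaemia PRC2 has been described both as a support of KMT2A-rearranged growth and as a complex lost by mutation.

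The promoters of the members are shown because the transcripts fell into sets that moved apart, as described further on. RefSeq (GRCh38.p14) gave 9 windows for the 6 genes, each from 250 bases before to 50 bases after an annotated start. Motifs were searched on both strands: the E2F forms TTTCCCGC, TTTGGCGC, TTTCGCGC and TTTGCCGC, the CCAAT box CCAAT and the E-box CACGTG bound by MYC and related factors. None of these letter strings overlapped another in the windows. Of the 35116 windows of all genes, 3.31% held an E2F form, 34.6% a CCAAT box and 7.26% the E-box. The windows below are EZH2 (chr7:148884242-148884541, minus strand), SUZ12 (chr17:31936757-31937056, plus strand), RBBP4 (chr1:32650958-32651257, plus strand) and RBBP7 (chrX:16870313-16870612, minus strand), written 5′ to 3′ along the gene with the matches in capitals.
EZH2: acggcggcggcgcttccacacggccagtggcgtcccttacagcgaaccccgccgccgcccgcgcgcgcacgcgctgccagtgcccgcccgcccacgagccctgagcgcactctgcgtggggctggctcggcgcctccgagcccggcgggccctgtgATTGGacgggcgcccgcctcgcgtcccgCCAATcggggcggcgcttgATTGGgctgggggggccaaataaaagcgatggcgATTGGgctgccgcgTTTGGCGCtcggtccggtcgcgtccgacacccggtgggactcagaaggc
SUZ12: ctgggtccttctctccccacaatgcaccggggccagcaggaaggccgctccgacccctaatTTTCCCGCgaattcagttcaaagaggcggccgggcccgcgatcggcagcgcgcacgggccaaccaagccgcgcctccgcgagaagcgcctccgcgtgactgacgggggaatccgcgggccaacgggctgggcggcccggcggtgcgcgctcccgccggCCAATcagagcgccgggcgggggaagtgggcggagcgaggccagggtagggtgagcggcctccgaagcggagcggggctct
RBBP4: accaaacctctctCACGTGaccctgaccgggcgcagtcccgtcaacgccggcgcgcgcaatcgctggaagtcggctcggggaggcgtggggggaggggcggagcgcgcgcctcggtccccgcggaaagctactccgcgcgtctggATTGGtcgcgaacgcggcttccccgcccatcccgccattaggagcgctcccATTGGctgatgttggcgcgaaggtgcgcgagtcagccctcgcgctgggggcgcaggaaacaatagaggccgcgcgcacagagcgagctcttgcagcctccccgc
RBBP7: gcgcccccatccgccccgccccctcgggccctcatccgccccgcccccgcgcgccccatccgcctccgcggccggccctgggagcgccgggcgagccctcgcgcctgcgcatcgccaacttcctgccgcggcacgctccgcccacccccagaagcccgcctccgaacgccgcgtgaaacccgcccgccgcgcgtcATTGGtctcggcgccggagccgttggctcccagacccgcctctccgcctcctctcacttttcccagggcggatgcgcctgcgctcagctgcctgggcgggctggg
The printed EZH2 window held 4 CCAAT boxes and, at the annotated start, the E2F form TTTGGCGC. The window at another annotated start of EZH2, not printed, held none of these motifs. SUZ12 had 1 E2F form far upstream and 1 CCAAT box near the start. The RBBP4 window had 2 CCAAT boxes and the E-box CACGTG near its upstream end, the 1 E-box among the 9 windows. The printed RBBP7 window held 1 CCAAT box. The other windows of RBBP4 and RBBP7, not printed, held 1 CCAAT box each. EZH1, not printed, held 1 E2F form on the reverse strand and no CCAAT box, and EED held 1 CCAAT box. These matches describe the letters and do not show that a factor binds there.

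MV4;11 libraries held 13313052 to 16274568 gene counts, and those of EOL-1 held 24574102 to 30256823. Levels are given as CPM, counts relative to the size of the library after trimmed-mean (TMM) scaling over all 14 libraries. The cell type markers alone, here and further on, are in CPM without that scaling. The myeloid genes CD33, SPI1, CEBPA, FLT3, PTPRC and HOXA9 were above 50 CPM in every library, and MPO ranged from 4.27 to 60.5 CPM. MEIS1 was at 43.9 to 62.4 CPM in MV4;11 and at 0.921 to 1.49 CPM in EOL-1. CD3E, CD3D, MS4A1, HBG1, EPCAM and COL1A1, markers of other cell types, were not analysed here. In bulk RNA, fewer cells of a type and less RNA per cell cannot be told apart.

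EZH2 had the widest range of the members, with group means 8.12-fold apart. In the EV libraries of MV4;11 it had 1174 and 1146 estimated counts (71.4 and 73.8 CPM), and in the shEZH2 libraries 157 and 154 counts (9.49 and 9.44 CPM). Both depleted libraries lay far below both controls, and the replicates differed little. The EZH2 transcript fell to 13.1% of control with the hairpin (log2 fold change -2.94 ± 0.07 SE, edgeR quasi-likelihood adjusted p = 2.8e-09), the smallest p of the 13591 genes tested in that table and rank 68 by size of change. In EOL-1, EZH2 was at 77.0 and 76.6 CPM in sgEV and at 30.0 and 28.2 CPM with sgEZH2. The guide left 38.3% of the control transcript (-1.39 ± 0.05, edgeR adjusted p = 3.2e-13).

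The remaining EZH2 groups lay between these extremes and did not overlap one another. With 2 libraries a group, such separation is only a description, here and below. The share of all genes whose groups separate in this way was not counted. The sgEV libraries of MV4;11 held 54.5 and 51.3 CPM of EZH2. The libraries labelled sgcMyc 1 held 45.6 and 46.0 CPM, and those labelled sgcMyc 5 held 47.4 and 47.3 CPM. From highest to lowest the order of group means was EOL-1 sgEV (76.8 ± 0.263 SD, n = 2), MV4;11 EV (72.6 ± 1.72), MV4;11 sgEV (52.9 ± 2.31), sgcMyc 5 (47.4 ± 0.0729), sgcMyc 1 (45.8 ± 0.236), EOL-1 sgEZH2 (29.1 ± 1.25) and shEZH2 (9.46 ± 0.0336). EOL-1 libraries with sgEZH2 thus held more EZH2 transcript than MV4;11 libraries with shEZH2, and the 2 MV4;11 controls were themselves apart. The RNA level gives no check of the loss of EZH2 protein, so it does not rank the 2 depletions.

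**Figure D1:**
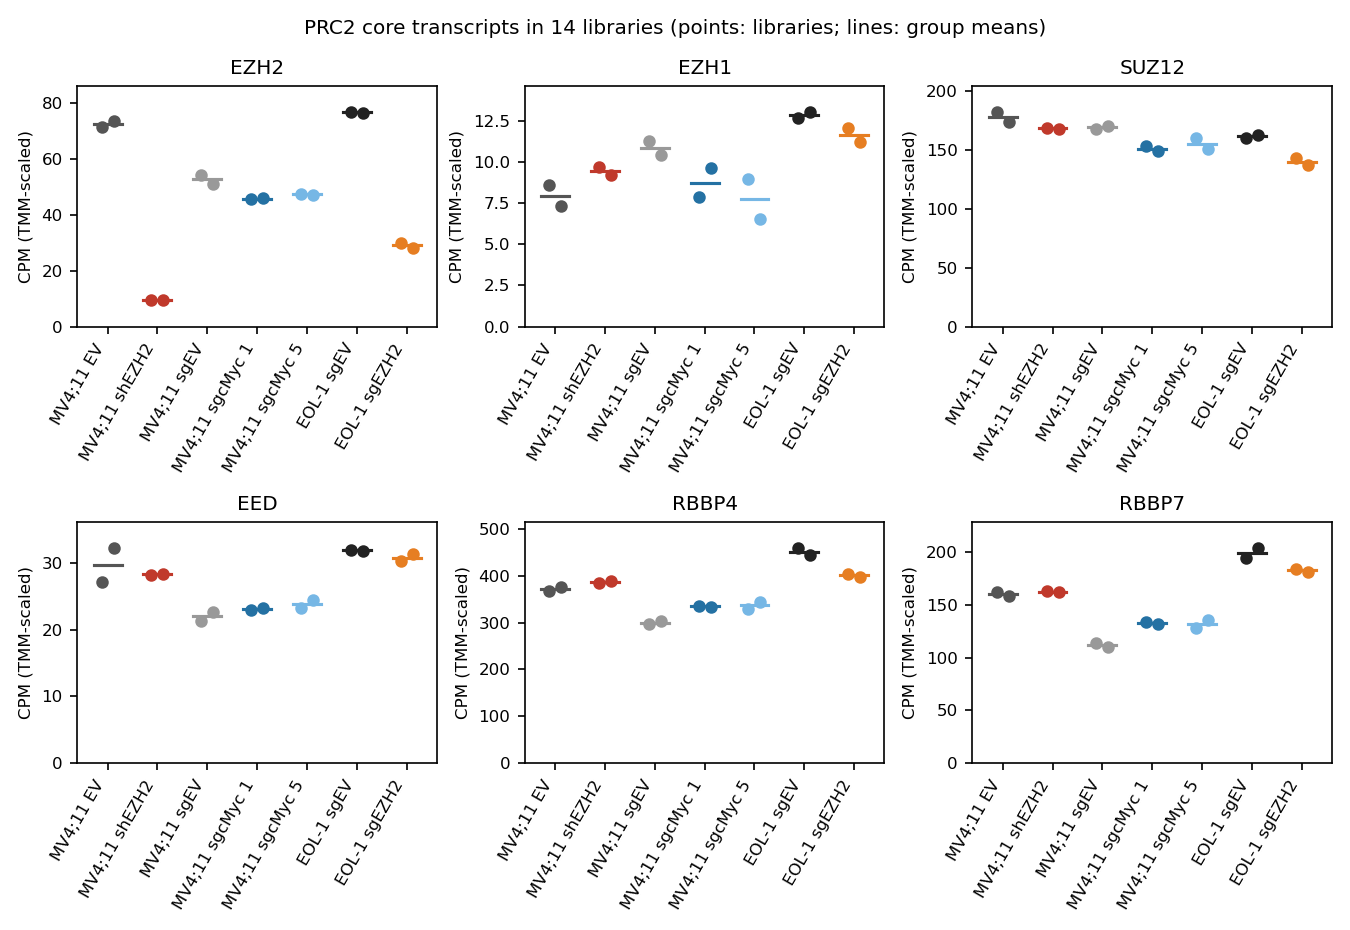
CPM (TMM-scaled, y axis from 0) of the 6 PRC2 core genes in each of the 14 libraries, by group, with lines at the group means of 2 libraries. EZH2 drops to 9.46 CPM with shEZH2 and 29.1 CPM with sgEZH2, while RBBP4 and RBBP7 show the same order of control groups, lowest in MV4;11 sgEV.

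The other members varied far less, with the highest and lowest group means 1.27-fold (SUZ12) to 1.78-fold (RBBP7) apart. In CPM (mean ± SD, n = 2), EZH1 ran from EOL-1 sgEV (12.9 ± 0.271) over EOL-1 sgEZH2 (11.6 ± 0.607), MV4;11 sgEV (10.8 ± 0.617), shEZH2 (9.43 ± 0.335), sgcMyc 1 (8.75 ± 1.27) and EV (7.96 ± 0.870) to sgcMyc 5 (7.74 ± 1.74). Neighbouring EZH1 groups overlapped except at 2 steps, EOL-1 sgEV above EOL-1 sgEZH2 and MV4;11 sgEV above shEZH2. SUZ12 ran from EV (178 ± 5.87) over MV4;11 sgEV (169 ± 1.76), shEZH2 (168 ± 1.14), EOL-1 sgEV (161 ± 1.67), sgcMyc 5 (155 ± 6.87) and sgcMyc 1 (151 ± 3.17) to EOL-1 sgEZH2 (140 ± 4.18). Its neighbours overlapped between MV4;11 sgEV and shEZH2 and between the 2 guides. EED ran from EOL-1 sgEV (31.9 ± 0.0993) over EOL-1 sgEZH2 (30.8 ± 0.794), EV (29.7 ± 3.60), shEZH2 (28.3 ± 0.113), sgcMyc 5 (23.8 ± 0.825) and sgcMyc 1 (23.1 ± 0.230) to MV4;11 sgEV (22.0 ± 0.979). EV overlapped both of its EED neighbours, and the 2 guides overlapped each other.

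RBBP4 and RBBP7 had nearly the same order of groups. RBBP4 ran from EOL-1 sgEV (452 ± 10.1) over EOL-1 sgEZH2 (401 ± 4.74), shEZH2 (387 ± 2.05), EV (372 ± 5.44), sgcMyc 5 (337 ± 10.2) and sgcMyc 1 (334 ± 0.551) to MV4;11 sgEV (300.1 ± 3.51). RBBP7 ran from EOL-1 sgEV (199 ± 6.71) over EOL-1 sgEZH2 (183 ± 2.21), shEZH2 (163 ± 0.339), EV (160.4 ± 2.66), sgcMyc 1 (133 ± 1.17) and sgcMyc 5 (132 ± 5.29) to MV4;11 sgEV (112 ± 2.78). In both genes the 2 guides were the only neighbours that overlapped.

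EZH1, the alternative catalytic subunit, was scarce in every group. It had 141 and 114 counts in EV (8.57 and 7.34 CPM) and 160 and 150 counts with shEZH2 (9.67 and 9.19 CPM). The shEZH2 libraries were the higher pair and the groups did not overlap, but the change was not called (0.24 ± 0.13, 95% interval -0.04 to 0.53, edgeR adjusted p = 0.192). In EOL-1, EZH1 was at 12.7 and 13.1 CPM in sgEV and at 12.1 and 11.2 CPM with sgEZH2 (-0.13 ± 0.09, interval -0.32 to 0.06, edgeR adjusted p = 0.314). The sign differed between the lines. A test of that difference gave -0.38 ± 0.15 (EOL-1 minus MV4;11, edgeR adjusted p = 0.0743), and without EV replicate 1 it was called (-0.49, edgeR adjusted p = 0.0451). Neither depletion therefore changed EZH1 at the threshold, and the intervals allow a rise of up to 1.44-fold with the hairpin.

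The makeup of the catalytic transcripts differed between depleted and control libraries. EZH1 made up 10.7% and 9.05% of EZH1 plus EZH2 counts in the EV libraries and 50.5% and 49.3% with shEZH2. The 95% exact binomial intervals were 9.10 to 12.5% and 7.52 to 10.8% in EV, and 44.8 to 56.1% and 43.6 to 55.1% with shEZH2, counting error only. In EOL-1 the share was 14.1% and 14.6% in sgEV and 28.7% and 28.4% with sgEZH2. The share was thus higher in the depleted libraries of both lines, and these did not overlap their controls. Since EZH2 counts are part of the total, a fall of the targeted EZH2 raises the share without any change of EZH1. The share was 17.1% and 16.9% in MV4;11 sgEV, 14.7% and 17.4% with sgcMyc 1 and 15.9% and 12.1% with sgcMyc 5. The sgcMyc 1 libraries lay on both sides of the controls and the sgcMyc 5 libraries below them.

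**Figure D2:**
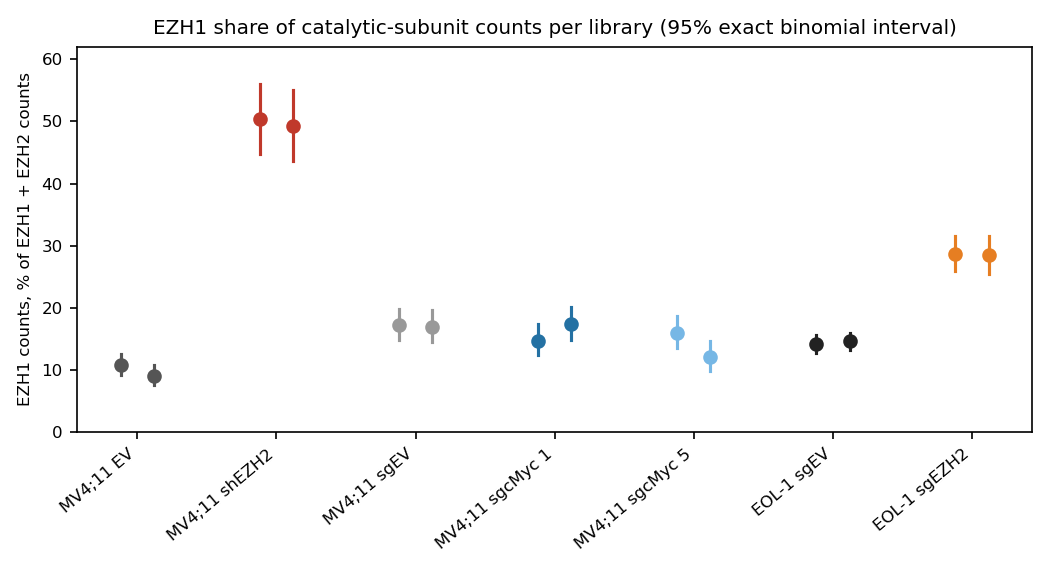
EZH1 counts as a percent of EZH1 plus EZH2 counts in each library (points), with 95% exact binomial intervals (bars), by group. The 2 shEZH2 libraries sit near 50%, the 2 EOL-1 sgEZH2 libraries near 28.6%, and no other library exceeds 17.4%.

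Longer transcripts gather more reads, so levels of different genes are compared only per kilobase of transcript. Lengths were those of the principal GENCODE v29 transcripts, and for EZH1 the 2 such transcripts, of 4623 and 2501 bases, bracket the value. In MV4;11 EV the levels per kilobase were 68.7 CPM for RBBP7, 46.8 for RBBP4, 39.7 for SUZ12, 27.5 for EZH2 and 13.3 for EED. EZH1 stood at 1.72 or 3.18 CPM per kilobase. On this scale EZH2 exceeded EZH1 by 16.0-fold or 8.65-fold in EV, and by 1.76-fold or 0.951-fold with shEZH2, so the order of the 2 enzymes after the hairpin depends on which EZH1 transcript is taken. In EOL-1 the ratio went from 10.5 or 5.66 in sgEV to 4.38 or 2.37 with sgEZH2, and EZH2 stayed the more abundant transcript. With shEZH2, EZH2 itself was at 3.59 CPM per kilobase, below EED at 12.7, whereas in EOL-1 with sgEZH2 it was at 11.0, beside EED at 13.9.

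Counts of EZH2 per count of a partner need no length. The ratio of EZH2 to EED counts was 2.46 ± 0.241 (SD, n = 2) in EV, 2.41 ± 0.212 in MV4;11 sgEV and 2.41 ± 7.3e-04 in EOL-1 sgEV. The 3 control groups thus had near-equal EZH2 to EED ratios, even though their EZH2 CPM differed. The ratio was 0.334 ± 0.00253 with shEZH2, 0.946 ± 0.0648 with sgEZH2, 1.98 ± 0.00955 with sgcMyc 1 and 1.99 ± 0.0719 with sgcMyc 5. For this ratio all 4 treated groups lay below every control library. The EZH2 to SUZ12 count ratio was less even among controls, at 0.408 in EV, 0.313 in MV4;11 sgEV and 0.476 in EOL-1 sgEV. It was 0.0563 with shEZH2 and 0.208 with sgEZH2, below every control library. With sgcMyc 1 it was 0.298 and 0.309 and with sgcMyc 5 it was 0.296 and 0.315, overlapping the 0.325 and 0.301 of MV4;11 sgEV.

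No member other than EZH2 passed the test with the hairpin in MV4;11. SUZ12 was at 182 and 174 CPM in EV and at 169 and 167 CPM with shEZH2 (-0.08 ± 0.04, interval -0.18 to 0.01, edgeR adjusted p = 0.185). EED was at 27.1 and 32.2 CPM in EV, the widest gap between replicates of any EED group, and at 28.2 and 28.4 CPM with shEZH2 (-0.06 ± 0.09, edgeR adjusted p = 0.630). The replicates of EED thus set the limit for that gene. RBBP4 was at 368 and 376 CPM in EV and at 385 and 388 CPM with shEZH2 (0.06 ± 0.04, interval -0.02 to 0.14, edgeR adjusted p = 0.272). RBBP7 was at 162 and 158 CPM and at 163 and 162 CPM (0.02 ± 0.04, interval -0.07 to 0.11, edgeR adjusted p = 0.744). Of the 6 members only EZH2, the targeted gene, was called with shEZH2, where 27.7% of all genes tested were called. Without EV replicate 2, SUZ12 was called (-0.12, edgeR adjusted p = 0.0314) and the EED difference became 0.06.

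In EOL-1 more of the complex was lower with the EZH2 guide. SUZ12 was at 160 and 163 CPM in sgEV and at 143 and 137 CPM with sgEZH2 (-0.19 ± 0.04, edgeR adjusted p = 6.9e-04). RBBP4 was at 459 and 444 CPM and at 404 and 397 CPM (-0.16 ± 0.03, edgeR adjusted p = 7.8e-04). RBBP7 was at 194 and 204 CPM and at 184 and 181 CPM (-0.11 ± 0.04, edgeR adjusted p = 0.0238). The levels were at 87.5% of control for SUZ12, 89.4% for RBBP4 and 92.5% for RBBP7. In each of these 3 genes both depleted libraries lay below both controls, without a count of how many of all genes did so. EED was at 32.0 and 31.8 CPM and at 30.3 and 31.4 CPM, and did not change at the threshold (-0.04 ± 0.06, edgeR adjusted p = 0.686). In all, 4 of the 6 members were lower, namely the targeted EZH2 and the untargeted SUZ12, RBBP4 and RBBP7. Of all genes, 11.8% were called lower and 26.9% in either direction. Spike-in scaling could not be tried on these calls, since the EOL-1 libraries held no spike-in counts. The RBBP7 call was lost with DESeq2 (adjusted p = 0.0991) and without sgEV replicate 2 (edgeR adjusted p = 0.406), and the RBBP4 call without sgEV replicate 1 (edgeR adjusted p = 0.0562).

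The difference between the lines was tested directly. The effect in EOL-1 minus that in MV4;11 was 1.54 ± 0.09 log2 units for EZH2 (edgeR adjusted p = 9.1e-09), whose fall was the smaller in EOL-1. It was also called for RBBP4 (-0.23 ± 0.05, edgeR adjusted p = 0.00152), which was at 0.06 in MV4;11 and -0.16 in EOL-1. The other 4 members did not pass, with RBBP7 at -0.14 ± 0.05 (edgeR adjusted p = 0.0553) and SUZ12 at -0.12 ± 0.05 (edgeR adjusted p = 0.122). That made 2 of 6 members, where 26.5% of all genes were called. Besides EZH2, the target of both the hairpin and the guide, RBBP4 was the only member called. In this fit the lower SUZ12 and RBBP7 of EOL-1 are not shown to differ from their values in MV4;11.

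**Figure D3:**
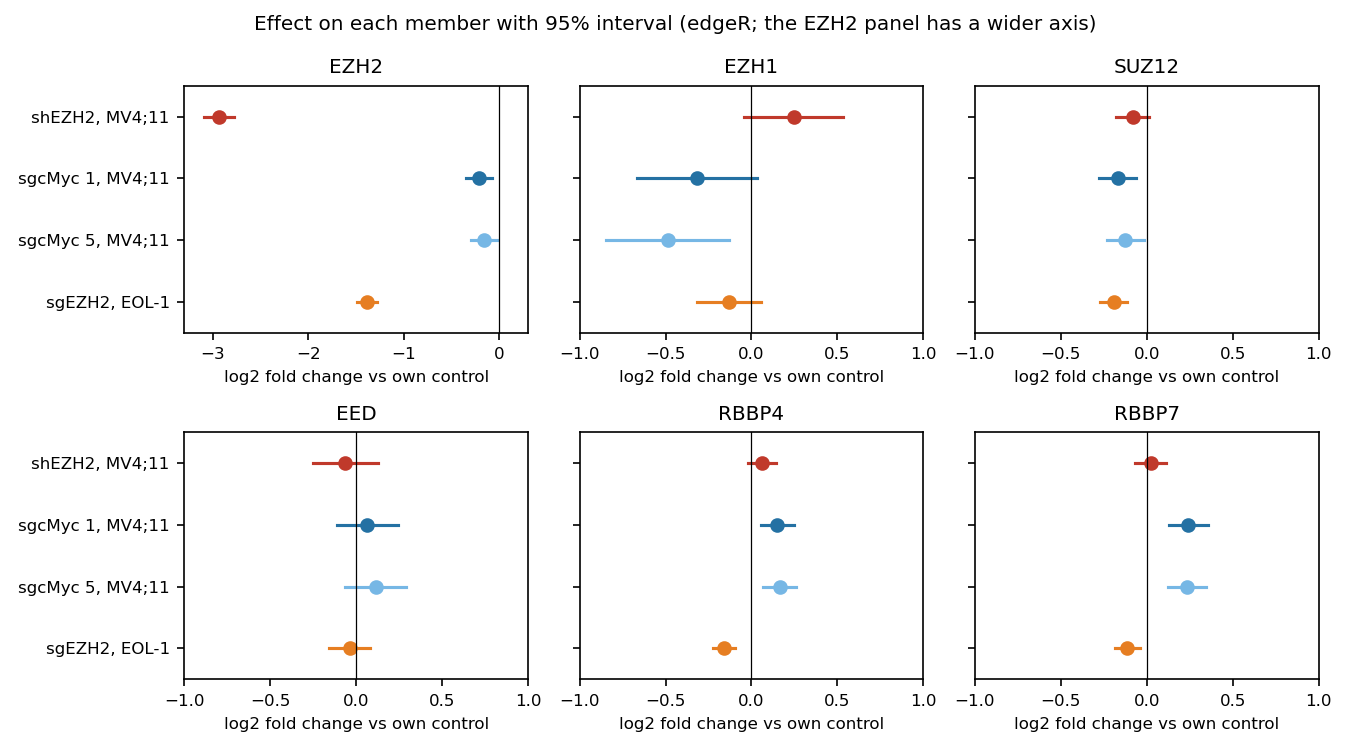
log2 fold change of each member against its own control (points) with 95% intervals from edgeR (bars), for shEZH2, both sgcMyc guides and sgEZH2, 2 libraries a group; the EZH2 panel has a wider axis. RBBP4 and RBBP7 lie above 0 with both sgcMyc guides and below 0 with sgEZH2 in EOL-1, and EED spans 0 in every comparison.

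The libraries labelled sgcMyc addressed how the complex responds when MYC, a transcription factor that drives growth genes, is targeted. The MYC transcript was higher, not lower, in them: 844 and 851 CPM with sgcMyc 1 and 796 and 799 CPM with sgcMyc 5, against 638 and 642 CPM in sgEV. The RNA level thus gives no check of the loss of MYC protein, and directions below belong to the labels. Both guides share the 2 sgEV libraries, so the 2 comparisons are not independent.

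RBBP7 and RBBP4 were higher in these libraries and the catalytic and scaffold genes lower. RBBP7 was at 114 and 110 CPM in sgEV, 134 and 132 CPM with sgcMyc 1 and 128 and 136 CPM with sgcMyc 5. Over both guides it was 0.24 ± 0.04 higher (edgeR adjusted p = 0.00119). RBBP4 was at 298 and 303 CPM in sgEV, 335 and 334 CPM with sgcMyc 1 and 330 and 344 CPM with sgcMyc 5, a difference of 0.16 ± 0.04 (edgeR adjusted p = 0.00649). For both genes all 4 libraries labelled sgcMyc lay above both controls, but how many of all genes did so was not counted. The RBBP4 window printed above is the one that holds the E-box, and the RBBP7 window holds none. The part of this motif in the changes was not tested.

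EZH2 was lower by a small amount over both guides (-0.19 ± 0.06, edgeR adjusted p = 0.0183), with all 4 libraries under both controls. SUZ12 was at 168 and 170 CPM in sgEV, 153 and 149 CPM with sgcMyc 1 and 160 and 150 CPM with sgcMyc 5 (-0.15 ± 0.04, edgeR adjusted p = 0.0161). Its libraries did not overlap the controls either, and for both genes this is a description without a share over all genes. EZH1 was at 11.3 and 10.4 CPM in sgEV, 7.85 and 9.65 CPM with sgcMyc 1 and 8.97 and 6.51 CPM with sgcMyc 5 (-0.40 ± 0.14, edgeR adjusted p = 0.0397). It had the largest change and the widest spread, resting on 93 to 155 counts per library. EED was at 21.3 and 22.7 CPM in sgEV and at 23.0 to 24.4 CPM with the guides, and was not called (0.09 ± 0.07, edgeR adjusted p = 0.362).

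Over both guides, 2 of 6 were higher and 3 of 6 lower, where 37.3% of all genes were called, 18.6% higher and 18.7% lower. With sgcMyc 1 alone 4 of 6 were called (background 32.2%), and EZH1 was at -0.31 (edgeR adjusted p = 0.161). With sgcMyc 5 alone 3 of 6 were called (background 31.2%), with EZH2 at -0.16 (edgeR adjusted p = 0.0766) and SUZ12 at -0.13 (edgeR adjusted p = 0.0726). The guides themselves differed in 0 of 6 members by edgeR, 0 of 6 at an unadjusted p under 0.05 and 0 of 6 by DESeq2, where 0.409% of all genes differed.

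Of 14 alternative settings or left-out libraries, none ended the RBBP7 call and 2 ended that of RBBP4, against 5 for SUZ12, 6 for EZH2 and 7 for EZH1. With DESeq2, RBBP4 and RBBP7 were the 2 members called. Scaled by the spike-in RNAs, which shifted the median of all genes by 0.12, the same 2 were called, EZH2 was at -0.07 (edgeR adjusted p = 0.546) and SUZ12 at -0.03 (edgeR adjusted p = 0.820), with SUZ12 at 0.03 for sgcMyc 5 alone. That scaling also moved the share of called genes that were higher from 49.8% to 72.8%. Without either sgEV library 1 member, RBBP7, was still called over both guides. With each guide alone its call was lost without sgEV replicate 2 (edgeR adjusted p = 0.0636 and 0.0715). Without either library of sgcMyc 1, 3 members were called and EZH2 was not among them (edgeR adjusted p = 0.0604 and 0.0592).

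The levels in the controls were compared between the lines. EOL-1 sgEV exceeded MV4;11 sgEV in RBBP7 by 0.83 ± 0.04 (1.78-fold, edgeR adjusted p = 1.8e-12), in RBBP4 by 0.59 ± 0.03 (edgeR adjusted p = 2.5e-11), in EZH2 by 0.54 ± 0.05 (edgeR adjusted p = 1.5e-08) and in EED by 0.53 ± 0.08 (edgeR adjusted p = 4.6e-06). SUZ12 (-0.07, edgeR adjusted p = 0.147) and EZH1 (0.25, edgeR adjusted p = 0.0863) did not pass. So 4 of 6 members were higher in EOL-1, where 36.4% of all genes were called higher and 74.6% in either direction. Line, table and sequencing depth cannot be told apart in this comparison.

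How far 2 controls of one line can differ is shown by EV and sgEV of MV4;11. EV was higher than sgEV in RBBP7 (0.52 ± 0.04, edgeR adjusted p = 1.2e-08), EZH2 (0.46 ± 0.05, edgeR adjusted p = 7.9e-07), EED (0.43 ± 0.08, edgeR adjusted p = 2.5e-04) and RBBP4 (0.31 ± 0.04, edgeR adjusted p = 8.8e-07). EZH1 was lower in EV (-0.44 ± 0.14, edgeR adjusted p = 0.0152), a call lost without EV replicate 2 (edgeR adjusted p = 0.125) and without sgEV replicate 1 (edgeR adjusted p = 0.104). The 5 calls among 6 members stood beside 50.4% of all genes. Among the markers, given without TMM scaling, PECAM1 was at 76.5 to 126 CPM in the EV table and 182 to 311 CPM in the sgEV table. KRT18 was at 9.38 to 11.6 and 0.138 to 0.784 CPM. The part of these 2 genes in the result was not tested. Set against MV4;11 EV instead, EOL-1 sgEV did not differ in EZH2 at the threshold (0.08 ± 0.05, interval -0.02 to 0.18, edgeR adjusted p = 0.131) or in EED (0.11, edgeR adjusted p = 0.193). RBBP4 (0.28) and RBBP7 (0.31) were still higher, EZH1 was higher by 0.69 and SUZ12 lower (-0.14), so 4 of 6 were called, beside 69.1% of all genes. Without EV replicate 1 the SUZ12 call was lost (-0.11, edgeR adjusted p = 0.0632), and without EV replicate 2 EED was called (0.23, edgeR adjusted p = 0.0124). The higher EZH2 of EOL-1 therefore depended on which MV4;11 control was used.

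The members fell into sets by how their levels ran over the 14 libraries. RBBP4 and RBBP7 ran closest together (Pearson r of log2 CPM 0.98, Spearman rho 0.98), and r was 0.98 over the 10 MV4;11 libraries and 0.97 over the 6 of the sgcMyc table. EED ran with RBBP7 (r = 0.93) and RBBP4 (r = 0.92). EZH2 had r between -0.09 and 0.12 with every other member over all libraries, and a Spearman rho of 0.41 with SUZ12. Without the 2 shEZH2 libraries r of EZH2 with SUZ12 was 0.82, and with the other 4 members it lay between -0.05 and 0.19. Within the 6 libraries of the sgcMyc table, EZH2 ran against RBBP4 (r = -0.92) and with SUZ12 (r = 0.86), and SUZ12 ran against RBBP7 (r = -0.95). These points share groups, tables and depth, so the values describe these libraries and carry no test.

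**Figure D4:**
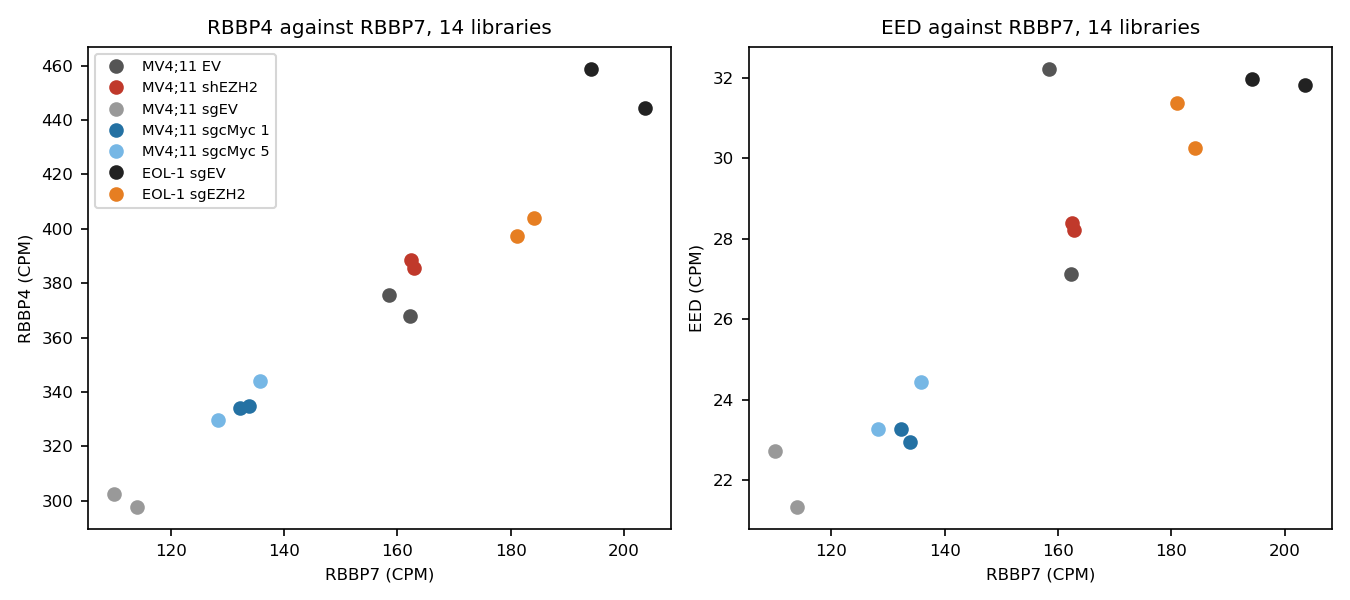
RBBP4 (left) and EED (right) against RBBP7 in CPM, one point per library, coloured by group. Both rise with RBBP7 from the MV4;11 sgEV libraries (110 and 114 CPM of RBBP7) to the EOL-1 sgEV libraries (194 and 204 CPM), and the shEZH2 points lie close to the EV points.

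Genes whose levels ran most like a member were sought among 8947 genes with a mean of at least 10 CPM. For EZH2 they were CASP2, a caspase (r = 0.95), OTUD4 (0.94), PSKH1 (0.93), PLA2G4A, a phospholipase (0.92), and CHKA, a choline kinase (0.90). The most opposite were RNF2 (-0.96), the ubiquitin ligase of Polycomb repressive complex 1, RAB4A (-0.91) and MBLAC2 (-0.88). These values lean on the shEZH2 libraries: without them r was 0.74 for CASP2, 0.45 for CHKA and -0.41 for MBLAC2, and -0.89 for RNF2, which still includes the EZH2-depleted EOL-1 libraries. Over the 6 libraries of the sgcMyc table, where EZH2 was not targeted, r of RNF2 with EZH2 was -0.08. RNF2 was at 23.0 and 22.5 CPM in EV and 30.3 and 29.6 CPM with shEZH2. In EOL-1 it was at 22.4 and 22.9 CPM in sgEV and 26.3 and 27.1 CPM with sgEZH2. Both depleted groups lay above every other library, of which the highest was at 24.4 CPM with sgcMyc 5. Since RNF2 was picked for this pattern, its levels are a description.

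**Figure D5:**
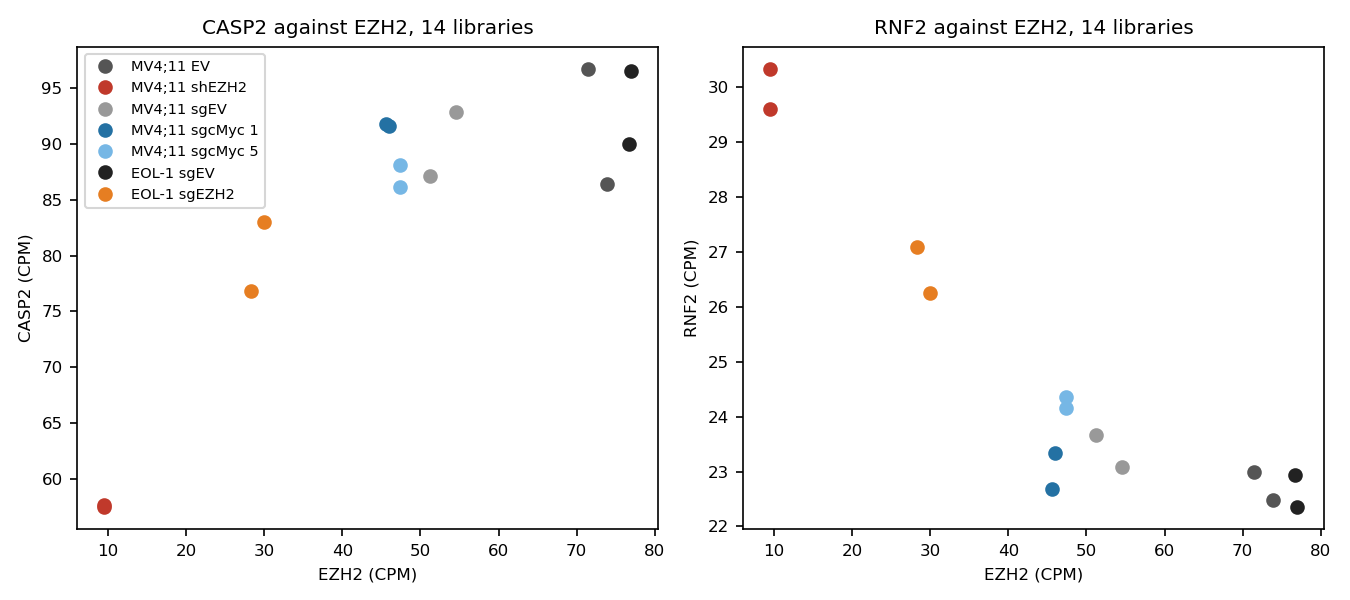
CASP2 (left) and RNF2 (right) against EZH2 in CPM, one point per library, coloured by group; the y axes do not start at 0. RNF2 is highest in the 4 EZH2-depleted libraries (26.3 to 30.3 CPM), while CASP2 is at 57.4 and 57.6 CPM with shEZH2.

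For the other members the closest genes were UBE2O (0.97) and RALGDS (0.95) for EZH1, FOXK2 and GATAD2A (both 0.95) for SUZ12, and GMNN, the replication inhibitor geminin (0.99), and NUDC (0.98) for EED. RBBP4 ran with HNRNPA3 and GTSE1 (both 0.98). RBBP7 ran with CHAF1B, a subunit of CAF-1, and NAP1L4, a histone chaperone (both 0.99). Without the 2 libraries farthest from the median of the member, each of these 10 values was 0.94 or higher.

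The counts of called genes in the lists that follow are to be read beside the shares of all genes called. These were 13.4% higher and 14.2% lower with shEZH2, 18.6% higher and 18.7% lower over both sgcMyc guides, and 15.1% higher and 11.8% lower in EOL-1 with sgEZH2.

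The accessory subunits of PRC2, which steer it to its sites, gave mixed results. With shEZH2, 2 of 8 tested rose and 1 fell (median 0.16, all genes 0.00): JARID2 (0.84) and C17orf96 (0.69, the gene now named EPOP) rose and PHF19 (-0.25) fell. In EOL-1, 3 of 9 fell and none rose (median -0.10, all genes 0.01), PHF19 (-0.20), C17orf96 (-0.16) and AEBP2 (-0.17). Counted in either direction, 3 of 8 with shEZH2 and 3 of 9 in EOL-1 are near the shares of all genes called, 27.7% and 26.9%. The opposite changes of C17orf96 in the 2 lines differed by -0.86 ± 0.10 (edgeR adjusted p = 1.4e-05). Over both sgcMyc guides JARID2 (0.17) rose and AEBP2 (-0.25) fell out of 8. Among 5 enzymes that act on the same lysine, the demethylase KDM6A fell with shEZH2 (-1.44 ± 0.10, edgeR adjusted p = 2.0e-06), KDM6B fell with sgcMyc (-0.89), and KDM6B (-0.64) and the acetyltransferase EP300 (-0.33) fell in EOL-1 with sgEZH2. For KDM6A the difference between the lines was 1.41 ± 0.12 (edgeR adjusted p = 3.2e-07).

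The complexes that share RBBP4 and RBBP7 were examined beside those 2 genes. Of 12 NuRD genes, 4 rose and 1 fell with shEZH2, 1 rose and 6 fell over both sgcMyc guides (median -0.14, CHD4 at -0.27), and 1 rose and 6 fell in EOL-1 (median -0.14). Of 12 SIN3 genes, with shEZH2 edgeR and DESeq2 each called 0 and 3 had an unadjusted edgeR p under 0.05. Of the same 12, 2 fell with sgcMyc, and 1 rose and 6 fell in EOL-1. Of the 3 genes of CAF-1 and HAT1, HAT1 (0.28) and CHAF1B (0.31) rose with sgcMyc as RBBP4 and RBBP7 did, and all 3 fell in EOL-1 with sgEZH2. With shEZH2 CHAF1A fell (-0.16, edgeR adjusted p = 0.0324), where RBBP4 and RBBP7 were not called. Of 11 DREAM and MuvB partners of RBBP4, which regulate cell cycle genes, 6 rose and 1 fell with sgcMyc. With shEZH2, 1 rose and 2 fell, and in EOL-1 with sgEZH2, 3 fell. The 3 of 11 called with shEZH2 and the 3 of 11 in EOL-1 are about the share of all genes called in either direction (27.7% and 26.9%), and the 7 of 11 with sgcMyc stand beside 37.3%.

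E2F-responsive cell cycle genes were listed because EZH2 and EED are known targets of E2F factors. Of 28, 8 fell and none rose with shEZH2 (median -0.06, MCM3 at -0.43), 18 fell and none rose in EOL-1 (median -0.16, CDC6 at -0.31), and 13 rose and 3 fell over both sgcMyc guides (median 0.15, PCNA at 0.44, CDT1 at -0.88). The medians of all genes tested in these comparisons were within 0.01 of 0. Of all genes, 14.2% fell with shEZH2 and 11.8% in EOL-1, and 18.6% rose with sgcMyc. Between the 2 MV4;11 controls 27 of 28 were higher in EV (median 0.64), where 23.7% of all genes were higher. In EOL-1 sgEV 25 of 28 were higher than in MV4;11 sgEV (median 0.93), where 36.4% of all genes were. In these 2 control comparisons EZH2, EED, RBBP4 and RBBP7 were higher as well. In EOL-1 sgEV against MV4;11 EV, 19 of 28 were higher and 5 lower (median 0.28), where 34.9% of all genes were higher. There RBBP4 and RBBP7 were higher, while EZH2 and EED were not called. Over both sgcMyc guides EZH2 was lower (-0.19) while 13 of the 28 rose. The part of cell cycle state in these differences was not tested.

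Near-identical copies limit SUZ12 and RBBP4, since the counting may split reads between copies. SUZ12P1 had 130 to 176 counts in MV4;11 libraries, and EOL-1 libraries had 208 to 250, against 2147 to 4557 for SUZ12. RBBP4P1 and RBBP4P2 had 17.1 to 73.5 counts, against at least 4089 for RBBP4. SUZ12P1 was not called with shEZH2, with either sgcMyc guide or with sgEZH2.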

How the data were processed

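Total RNA of 14 libraries in 7 groups was sequenced after library preparation with a NEBNext Ultra II kit, per the labels' protocols. The authors deposited 3 tables, 1 for each comparison. Per the file headers, each holds raw columns, which are estimated counts per gene, log2 normalised columns and a mean signal per gene (baseMean). RSEM, DESeq and the build hg19 are named in the submitters' processing notes. Not given in the sources used here are versions, the aligner, the annotation, the strand setting and how the log2 columns were normalised. Table columns were matched to samples by inference from line, target, guide number and replicate number. The members, gene lists and tests were chosen with earlier results of these data known.

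Estimated counts were rounded. Spike-in rows (1.06 to 1.30% of counts in the MV4;11 tables) were left out of library sizes and tests. Within each table, genes passing filterByExpr were scaled by TMM and tested with the robust quasi-likelihood test of edgeR 4.0.16 in R 4.3.3, with Benjamini-Hochberg adjustment over all genes tested and a threshold of 0.05. All 6 members passed the filter in every fit. The standard error was the log2 fold change divided by the root of F, and 95% intervals used the t distribution. Differences between lines and CPM levels came from joint fits over genes shared by the tables. The scripts were tested on simulated data. Planted log2 changes of 0.5 were recovered for 68% of such genes with shEZH2, 70.4% with sgcMyc and 73.5% with sgEZH2. For changes of 1 the values were 84.0%, 83.7% and 85.7%. Smaller changes, the size of most member differences besides EZH2, were not simulated. Alternatives were DESeq2 1.42.0, its size factors, other count filters, no robust step, limma 3.58.1 on the deposited log2 values, spike-in scaling, a replicate block and each library left out. No replicate was a copy of another, since in each group the chi-square of their counts per degree of freedom was 1.47 to 5.68. Named genes were the 6 members, up to 3 called genes per list and comparison with the smallest p, and the genes with the highest or lowest Pearson r to a member. Promoter sequences came from RefSeq (GRCh38.p14), and no coordinate of the tables was converted.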

Additional observations from a re-analysis of the deposited data

Results flagged for a closer look

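The effect of EZH2 depletion differed between the lines for 2 members, the targeted EZH2 and RBBP4, by an edgeR test of the difference itself. For EZH2 the difference was 1.54 ± 0.09 log2 units (EOL-1 minus MV4;11, adjusted p = 9.1e-09), with 13.1% of the control transcript left by the hairpin in MV4;11 and 38.3% by the guide in EOL-1. For RBBP4 it was -0.23 ± 0.05 (adjusted p = 0.00152), with a change of 0.06 in MV4;11 and -0.16 in EOL-1. Both were called in all 14 alternatives. Line and depletion method cannot be told apart, and the transcript left gives no check of EZH2 protein.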

How the results depend on the processing

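Of the alternatives for single members, 847 values kept direction and call, 56 lost the call, 9 gained one and 12 changed sign. EZH2 was called in all 12 alternatives for shEZH2 (-2.98 to -2.22) and all 11 for sgEZH2 (-1.44 to -1.15). Members called over both sgcMyc guides numbered 5, 2 with DESeq2 and 2 with spike-in scaling, and 1 to 5 when a library was left out. With shEZH2 the number was 1, and 1 to 2 when a library was left out. Under spike-in scaling the sign changed for RBBP7 with shEZH2 (-0.026), SUZ12 with sgcMyc 5 (0.026) and RBBP7 between the guides (0.055). Leaving out libraries gave EED ranges of -0.18 to 0.061 with shEZH2, -0.098 to 0.15 for the difference between lines and -0.015 to 0.23 for EOL-1 sgEV against MV4;11 EV. Between the guides, ranges were -0.42 to 0.044 for EZH1, -0.0036 to 0.093 for SUZ12, -0.012 to 0.043 for RBBP4 and -0.044 to 0.0315 for RBBP7. The causes were not tested.

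Over all genes, calls with shEZH2 numbered 3758, but 1844 with DESeq2, 2212 with spike-in scaling (36.4% of them higher, against 48.5%) and 2476 without shEZH2 replicate 1. For sgcMyc 5203 became 3219 with DESeq2, 2935 without sgEV replicate 1 and 3013 without sgEV replicate 2. For sgEZH2 3738 became 1870, and for the difference between lines 3593 became 2041, both with DESeq2. Replicate numbers were not used as pairs in the main tests. The correlation of same-numbered deviations differed in sign between pairs of groups. It was 0.15 for EV and shEZH2, -0.18 and -0.20 for sgEV and each sgcMyc guide, 0.39 between the guides and 0.07 in EOL-1. With a replicate block the members called numbered 1 for shEZH2, 5 for sgcMyc, 4 for sgEZH2, 3 for the difference between lines (RBBP7 added, edgeR adjusted p = 0.0426) and 4 between the control lines, and SUZ12 was called with sgcMyc 5 (edgeR adjusted p = 0.0471). EZH1 rests on 93 to 366 counts per library, which limits its precision.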
